A study of Mus with 438 samples.

Results

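The bound induced regions are 1292 stretches of open chromatin in mouse cone photoreceptors. Each is a region of the deposited list of thyroid hormone receptor-induced ATAC-seq regions that shares at least 1 bp with a region of the deposited list of receptor ChAP-seq regions. They make up 25.6% of the 5049 induced regions and belong to 13711 regions over the 3 deposited lists, the third being 4072 suppressed ATAC-seq regions. ATAC-seq reads open chromatin by tagmentation, and ChAP-seq recovers DNA with a biotin-tagged protein on streptavidin.

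All mice were C57BL/6. The ATAC lists came from immunopurified cone nuclei of postnatal day 30 (P30), with 2 Trb2Cre-het:Sun1-gfp controls and 2 Trb2Cre-KO:Sun1-gfp knockouts. The ChAP list came from whole retina at embryonic day 18 (E18), with 2 ThrbHAB:BirA samples and 2 controls that carried BirA without the tagged receptor. Binding in this list was therefore measured in whole retina of embryos, in whichever cells carried the tagged receptor. Openness was measured in young adult cones. RNA was read in single picked cells. Control cones were Trb2Cre-het:Ai6, taken from the superior or the inferior zone of the retina. There were 56 such cells at P2 (26 of them superior), 48 at P8 and 48 at P21 (24 superior each), 47 at P60 (26 superior), and 103 (53 superior) in a collection labelled 2 months, here 2m. Knockout cones were Trb2Cre-KO:Ai6 at 2m (50 superior and 48 inferior), and 29 rods at 2m came from tgNrl:gfp mice. The control cones also carry the Cre allele, on 1 chromosome, and cells were found by a reporter that Cre switches on. No label names an animal, so each group of cells is 1 sample, and comparisons of knockout, age and cell type have no test.

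Thrb encodes the thyroid hormone receptor beta, a nuclear receptor that binds DNA with and without its hormone and can raise or lower transcription of nearby genes. Its beta2 isoform is the form of developing cones. In mice that lack it, cones lose M opsin (Opn1mw) and carry S opsin (Opn1sw) throughout the retina, where normally M opsin prevails in superior and S opsin in inferior cones.

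Library depth ran from 8.98e+05 to 3.26e+07 reads, and the medians of the P60 groups (2.22e+06 inferior and 1.94e+06 superior) were far below those of the 2m control groups (1.36e+07 and 1.26e+07). The 7 cone markers summed to 43001 CPM (reads scaled to library size) or more in adult control cones and to 20.9 CPM in rods. The 6 measured rod markers summed to 11598.5 to 21711 CPM in adult cones of either genotype and to 125160 CPM in rods. Thrb itself was the check of the knockout. Its mean was 213 CPM in 2m superior and 170 CPM in 2m inferior control cones, 358 and 192 CPM at P60, and 43.2 and 33.9 CPM in the knockout. Knockout cells ran from 0 to 454 CPM (median 0.125 superior and 0.0716 inferior), and their range overlaps that of 2m control cells (0 to 1340 CPM, medians 81.5 and 60.0). The RNA table gives 1 value over all exons, and the targeted exons were not checked on their own.

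ChAP regions lay in induced regions far more often than in suppressed ones. Of the induced regions 25.6% held a ChAP region, and of the suppressed regions 2.58% (105 of 4072). Read from the other side, 1293 of the 4590 ChAP regions (28.2%) lay in an induced region, 106 (2.31%) in a suppressed region and 3191 (69.5%) in neither. No region stood in both ATAC lists. Nearly every bound induced region, 1290 of 1292, held exactly 1 ChAP region, and 2 held 2.

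In most pairs the overlap was complete. All ChAP regions in the list are 300 bp wide, and 861 of the 1294 pairs (66.5%) had the ChAP region wholly inside the open region. The midpoints of a pair were a median of 59.5 bp apart, and 88.8% of the pairs were within 200 bp. The smallest overlap was 29 bp, and 1287 regions shared at least 100 bp. Just outside the rule, 4 induced regions had a ChAP region within 100 bp without touching it, the nearest at 58 bp, and 170 had one within 1 kb.

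Bound induced regions were wider than the rest. Their median width was 531 bp (quartiles 360 and 773 bp), against 407 bp (287 and 635 bp) for the 3757 induced regions outside the ChAP list. The share bound was larger in the wider classes of the induced list, from 13.6% of regions of 201 to 300 bp to 38% of regions over 1000 bp. In the suppressed list it went from 0.620% to 6.90% over the same classes. In each of the 6 width classes the induced share was above the suppressed share. A wider region has more room to share 1 bp with a ChAP region, so the rule itself favours width. The part of this in the widths was not tested.

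The ChAP regions with the smallest deposited p fell most often in induced regions. The ChAP list was ordered by p and divided into 10 parts of equal size. In the first, 252 of 459 regions (54.9%) lay in an induced region and 1 (0.218%) in a suppressed one. In the last the shares were 16.8% and 3.05%. The median p was 9.66e-05 for ChAP regions in induced regions, 0.00252 for those in neither list and 0.00447 for those in suppressed regions. A p of at most 1e-10 was given to 193 ChAP regions in induced regions (14.9%), 134 in neither list (4.20%) and 1 in a suppressed region. The sources used here do not say whether this column is a p, a q or an FDR value, so it serves as a rank only.

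**Figure D1:**
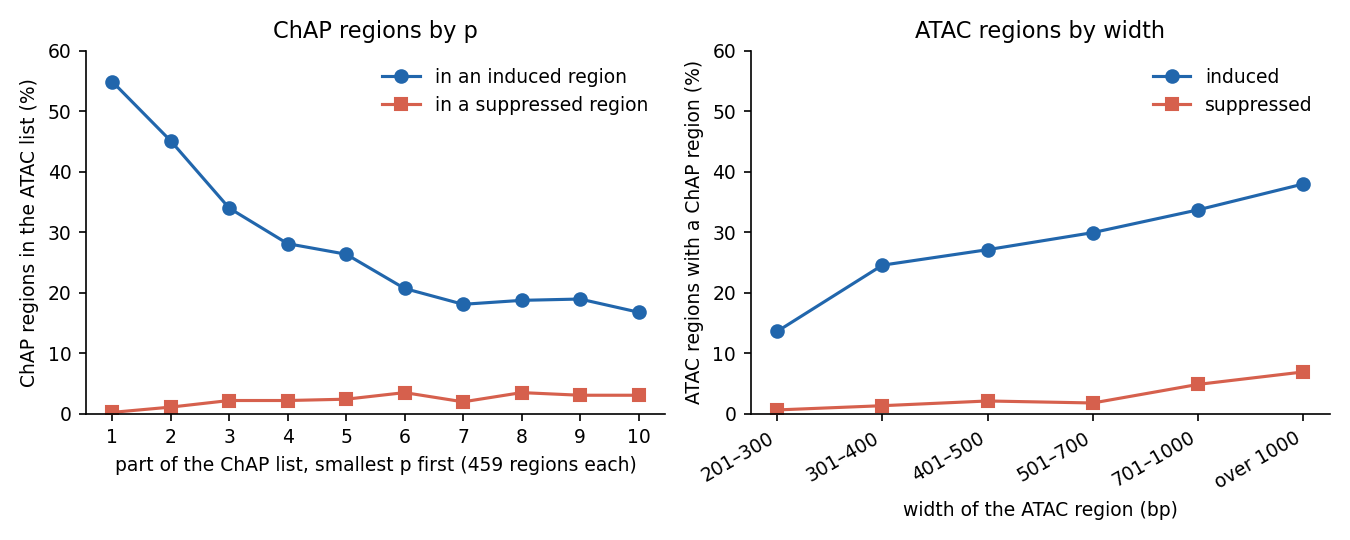
Left, share of ChAP regions (percent) that lie in an induced (blue) or suppressed (red) ATAC region, by part of the ChAP list, ordered by p and divided into 10 equal parts; right, share of ATAC regions (percent) that hold a ChAP region, by width in bp. The induced share falls from 54.9% to 16.8% along the ChAP list, and it rises from 13.6% to 38% with width.

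The 5 bound induced regions with the smallest p lay near genes of different kinds. The first, chr11:78787451-78787817 (mm10, p = 2.67e-36), is between genes, 35.7 kb from Ccnq. The next lies inside Pde6b, the beta subunit of the rod phosphodiesterase (chr5:108421658-108422641, 984 bp, p = 2.88e-32). The third, chr12:111982679-111983233 (555 bp, p = 3.14e-32), lies inside Tdrd9 and 1.36 kb beyond the right end of Rd3l, and its midpoint is 3.5 bp from that of the ChAP region. The others were inside Arhgap26 and 1.59 kb from Prss51. Thrb itself had 1 bound region inside the gene (chr14:17963580-17964256, p = 9.23e-25), 304 kb from its left end. Another lay 25.3 kb left of the gene (chr14:17632718-17633899, p = 6.46e-08).

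Bound and unbound induced regions had like shares inside genes and unlike shares at gene ends. Of the bound ones 60.8% lay within a protein-coding gene's interval (unbound 59.7%, suppressed 52.5%), and 13.2% were over 50 kb from any such gene (unbound 13.4%, suppressed 30.5%). Within 1 kb of either end of a gene lay 5.57% of the bound regions, 10.1% of the unbound ones and 14.2% of the ChAP regions in neither list. The annotation at hand has neither strand nor exons, so starts could not be told from ends. Bound regions made up 32% of the induced regions of chromosome 11 (122 of 381), the highest share, and 17.4% of those of chromosome X (8 of 46), the lowest.

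Induced regions came in groups, bound or not. Another induced region lay within 50 kb of 53.6% of the bound ones and 61.4% of the unbound ones. A suppressed region lay that near to 7.66% of the bound and 4.87% of the unbound. The median gap from a bound region to the next induced region was 39.4 kb, and to the nearest suppressed region 464 kb.

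Genes near bound induced regions were compared between knockout and control cones. A gene was linked when its RefSeq interval came within 50 kb of a bound region, which held for 1519 of 10143 genes of the RNA table, and 933 of the 1292 regions (72.2%) had such a gene. A gene counted as lower or higher when the log2 ratio of mean CPM + 1 was at least 1 in size in both zones, in the same direction. On the side with more of it, the mean level and the share of cells above 1 CPM were averaged over both zones. These had to reach 10 CPM and 25%. Against 2m control, 40 linked genes (2.63%) were lower in the knockout, beside a background of 1.23% of all genes, and 17 (1.12%) were higher, beside 1.16%. Against P60 control, 83 (5.46%) were lower, beside 2.39%, and 20 (1.32%) higher, beside 2.11%. Lower against both controls were 28 linked genes (1.84%), beside 0.473%, and higher against both were 5 (0.329%), beside 0.187%.

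Seen from the RNA, 28 of the 48 genes that were lower against both controls (58.3%) had a bound induced region within 50 kb. Of all genes, 15% had one. In 15 of the 48 such a region lay inside the gene's interval, beside 480 of all 10143 genes. Of those 48, 2 had no region of any list within 50 kb. Of the 19 genes higher against both, 5 (26.3%) were linked and 8 had no region nearby. Among all 10143 genes, 4188 had no region nearby. The median log2 ratio of the linked genes was 0.02 against 2m control, beside 0.06 for all genes, and -0.17 against P60 control, beside 0.02. Both comparisons share the knockout cells, so their calls are not independent. Of the 28 linked lower genes, 4 shared a bound region with another of the 28: Acadvl with Dvl2, and Kctd10 with Myo1h. Of the 40 lower against 2m control, 6 shared one in this way. Such genes are not separate cases. Markers of other cells differed too: the median log2 ratio against 2m control was -1.65 over the 10 measured Muller glia genes, -0.71 over 14 rod genes, 1.20 over 4 bipolar genes and 1.88 over 3 amacrine and horizontal cell genes. By the size rule 1 Muller glia gene was lower and 1 higher, 3 rod genes lower and 2 higher, and 1 bipolar gene higher. In shorter marker sets, 5 Muller glia genes summed to 164 and 249 CPM (knockout superior and inferior), against 190 and 357 CPM (2m control). The 1 bipolar gene there was at 1.20 and 0 CPM, against 0.377 and 17.7 CPM. The 2 amacrine and horizontal genes summed to 43.4 and 13.4 CPM, against 15.7 and 8.17 CPM. The part of these markers in the counts of linked genes was not tested.

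The 2 control collections of like age differ in depth, and the comparison between them gives the scale of such calls without a change of genotype. P60 against 2m control, 28 linked genes (1.84%) were lower, beside 3.03% of all genes, and 63 (4.15%) were higher, beside 3.06%. Linked genes thus stood lower in the 2m collection than in the P60 collection more often than other genes did, and the part of this in the counts against P60 was not tested.

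The share of lower genes was largest nearest to a bound region. Of the 480 genes with a bound region inside the interval, 21 (4.38%) were lower against 2m control. The share was 2.78% of 216 genes with a gap of up to 10 kb, 1.58% of 823 at 10 to 50 kb and 0.702% of 712 at 50 to 100 kb. Farther out it did not go on down, with 0.760% of 1316 genes at 100 to 200 kb, 0.898% of 2228 at 200 to 500 kb and 1.14% of 4368 over 500 kb. For higher genes the shares in the first 4 classes were 1.46%, 1.39%, 0.851% and 0.562%. Genes with a region inside are long, with a median of 78.2 kb against 23.6 kb for all genes. With 1, 2 and 3 or more bound regions within 50 kb, 2.26%, 4.21% and 6.67% of genes were lower (29 of 1284, 8 of 190 and 3 of 45), and with none 0.986%.

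**Figure D2:**
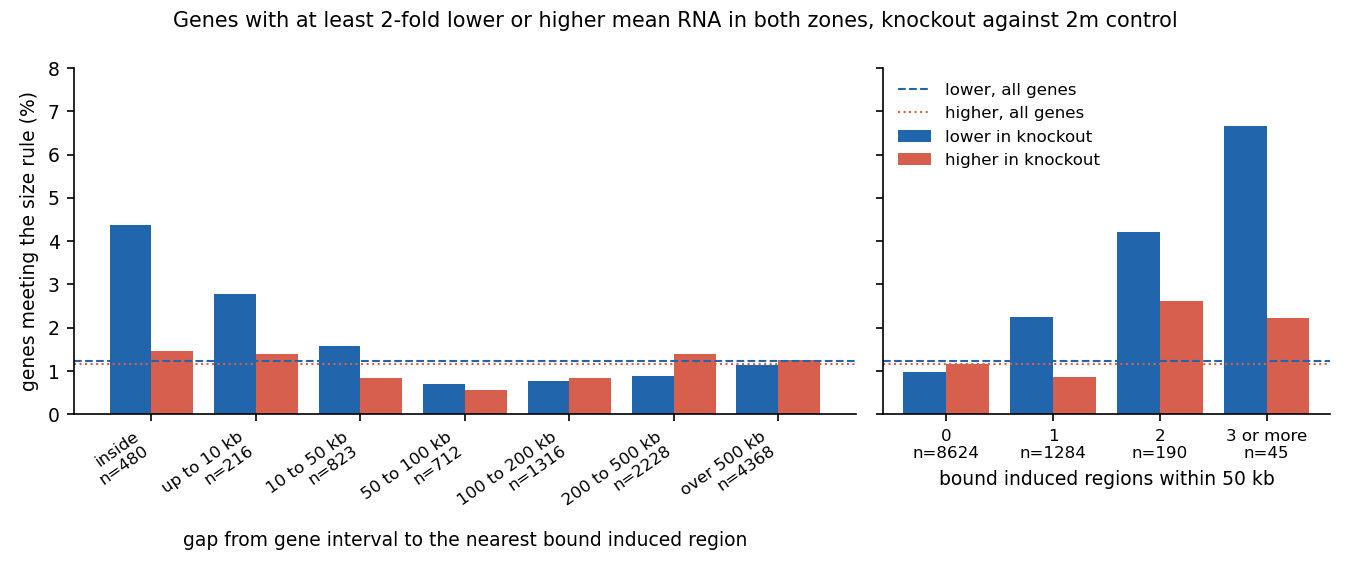
Share of genes (percent) at least 2-fold lower (blue) or higher (red) in both zones in knockout against 2m control, by gap to the nearest bound induced region (left) and by number of such regions within 50 kb (right), with the number of genes under each pair of bars; dashed and dotted lines are the shares of all genes, 1.23% and 1.16%. The lower share is 4.38% with a region inside the gene, 0.702% at 50 to 100 kb and 1.14% over 500 kb.

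The share of genes lower in the knockout was larger with more induced regions around the gene, bound or not. Linked genes that also had an unbound induced region within 50 kb were lower in 32 of 825 cases (3.88%), and linked genes with none in 8 of 694 (1.15%), near the background of 1.23%. For comparison, 30 of 1877 genes (1.60%) with unbound induced regions only, 10 of 1382 (0.724%) with ChAP regions in neither ATAC list only and 42 of 4188 (1%) with no region were lower. With the number of induced regions held alike, genes with a bound one were lower more often in some classes and less often in others. With 1 induced region the shares lower were 1.12% with binding and 0.809% without, with 2 they were 1.03% and 2.06%, with 3 to 4 they were 3.45% and 4.88%, and with 5 or more they were 10.9% (17 of 156) and 6.82% (3 of 44). Against P60 control the shares in the same order were 2.24% and 1.95%, 3.08% and 3.08%, 7.76% and 6.10%, and 19.2% (30 of 156) and 15.9% (7 of 44). These differences were not tested, with 1 sample a group, and the classes were drawn after the counts above were seen. Counted by regions, 4.02% of bound and 5.35% of unbound induced regions, 1.66% of ChAP regions in neither list and 0.467% of suppressed regions had a gene lower against 2m control within 50 kb. Bound regions thus stood below unbound ones by this count, while linked genes (2.63%) stood above genes with unbound regions only (1.60%).

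**Figure D3:**
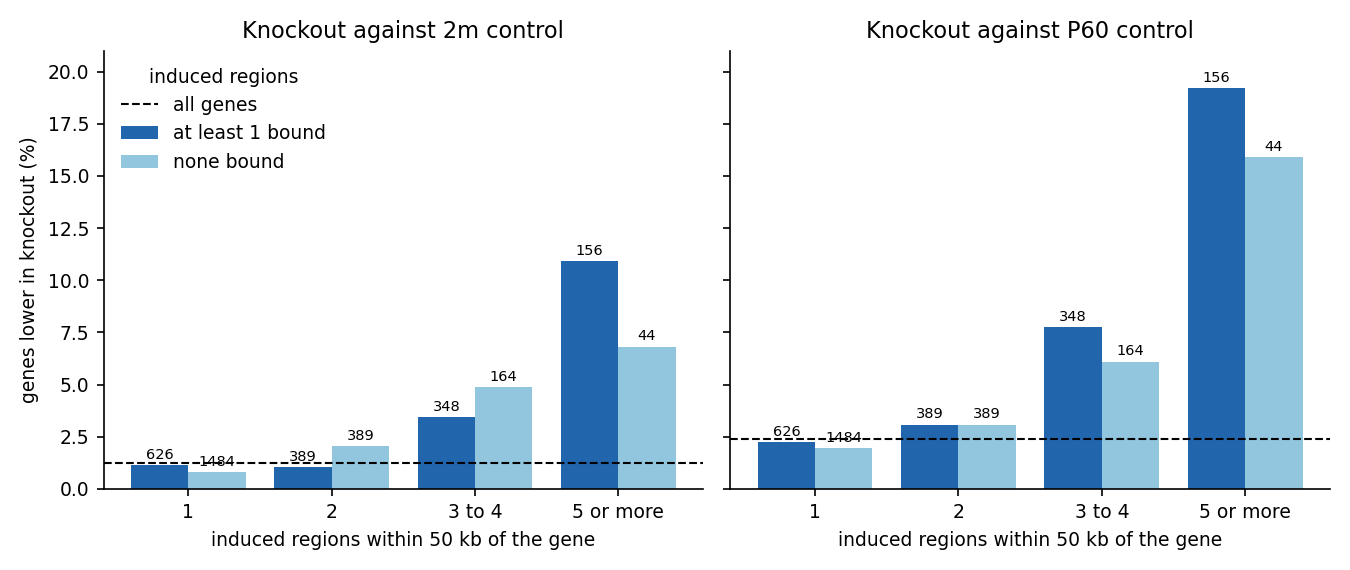
Share of genes (percent) lower in knockout against 2m control (left) and P60 control (right), by number of induced regions within 50 kb, for genes with at least 1 bound induced region (dark) and with none bound (light); the number of genes stands over each bar and the dashed line is the share of all genes. With 5 or more regions the shares are 10.9% and 6.82% against 2m control and 19.2% and 15.9% against P60 control, and from 1 to 2 regions the dark bar against 2m goes from 1.12% to 1.03%.

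Among single genes, Rd3l had the lowest mean of both zones' knockout ratios among the linked genes at a pseudocount of 1, while at 0.1 that of Glb1l2 was lower (-10.14, against -9.37). Rd3l is a relative of Rd3, which transports and inhibits the guanylate cyclase of photoreceptors. Rd3l averaged 299 CPM in 2m superior and 338 CPM in 2m inferior control cones (medians 233 and 238, cells from 0 to 2048), 404 and 300 CPM at P60, and 0.0120 and 1.97 CPM in the knockout, where the median was 0 in both zones. Of 48 inferior knockout cells 2 exceeded 1 CPM, the highest with 68.2 CPM, so the ranges overlap only through control cells at low values. The log2 ratio was -8.21 superior and -6.84 inferior against 2m, and -8.64 and -6.66 against P60. Around the gene stand the bound region described above and 8 unbound induced regions.

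Nptx2 was the lowest linked gene of the synaptic terminal list. It encodes a secreted neuronal pentraxin, which gathers glutamate receptors at synapses, and had 2 bound regions 19.6 and 38.1 kb left of the gene (chr5:144525637-144526302, p = 2.82e-12, and chr5:144507302-144507790) among 8 unbound induced regions. Its mean was 62.6 CPM superior and 26.6 CPM inferior in 2m control cones, with cells from 0 to 720, and 161 and 72.0 CPM at P60. In the knockout it was 0.0273 CPM superior and 0 in all 48 inferior cells. Against 3 reads over the inferior group, the pooled control level was at least 6288-fold higher, a bound for counting error only. Of the 2m control cells, 25 of 53 superior and 14 of 50 inferior ones exceeded 1 CPM, with medians of 0.564 and 0.223 CPM. The control level thus rested on part of the cells. The related Nptx1 had 2 bound regions. It averaged 121 CPM superior and 52.9 CPM inferior in 2m control cones, and 8.03 and 10.4 CPM in the knockout. Above 1 CPM were 4 of 98 knockout cells, and 33 of 53 superior and 19 of 50 inferior 2m control cells. Lynx1, a membrane-anchored modulator of nicotinic receptors, and Gabrr3, a rho subunit of GABA receptors, had 1 bound region each, 46.2 kb and 1.99 kb from the gene. Their log2 ratios against 2m were -3.94 and -4.04 for Lynx1 and -4.46 and -3.47 for Gabrr3 (superior and inferior). In 2m control cones Lynx1 exceeded 1 CPM in 21 of 53 superior and 24 of 50 inferior cells, and Gabrr3 in 24 and 14.

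Rgs7, Fzd10, Zdhhc14 and Glb1l2 were further genes lower against both controls. Rgs7 speeds the end of G protein signals and held 4 bound induced regions in or across its interval, with 8 unbound ones. It averaged 119 CPM superior and 50.7 CPM inferior in 2m control cones and 20.4 and 0.00291 CPM in the knockout. In the superior knockout cones the level rested on 3 of 50 cells, the highest at 642 CPM. In 2m control cones 19 of 53 superior and 11 of 50 inferior cells exceeded 1 CPM (medians 0.221 and 0.0506). Fzd10, a Wnt receptor, had bound regions 41.6 kb to its right and 42.6 kb to its left, and log2 ratios of -5.81 superior and -2.83 inferior. Zdhhc14, a palmitoyl transferase, had 1 bound region inside the gene and ratios of -6.04 and -2.19. In 2m control cones Fzd10 exceeded 1 CPM in 24 of 53 superior and 14 of 50 inferior cells, and Zdhhc14 in 20 and 12. The medians there were 0.237 and 0.0467 CPM for Fzd10 and 0.440 and 0.0843 CPM for Zdhhc14. Glb1l2, a beta-galactosidase relative, was near 0 in all 98 knockout cells (highest 0.4 CPM) against means of 137 and 119 CPM in 2m control cones. Most 2m control cells were low too, with medians of 0.368 CPM superior and 0.174 CPM inferior. Above 1 CPM were 22 of 53 superior and 13 of 50 inferior ones, and 0 of 24 inferior control cells at P21. The 1 bound region of Glb1l2, inside the gene, had a p of only 0.0264, and rods averaged 173 CPM.

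Pgc had 4 bound regions, which also lie within 50 kb of its neighbours. It encodes the precursor of a gastric protease, and 4 bound induced regions lie within 50 kb, of which 2 are inside it (chr17:47729460-47729937 and chr17:47733418-47733767) and 2 are to its left (chr17:47711875-47712470 and chr17:47706750-47707223). Its mean was 14.6 CPM superior and 25.6 CPM inferior in 2m control cones, 24.5 and 21.3 CPM at P60 and 38.9 and 28.3 CPM at P2. All 98 knockout cells and all 29 rods were at 0. The pooled control level was at least 2881-fold (superior) and 5056-fold (inferior) above 3 reads over the knockout group, for counting error only. Frs3, Prickle4, Tomm6 and Usp49 lie near the same 4 regions, and none of them met the size rule against 2m control, with log2 ratios between -0.12 and 1.78. Against P60 control Frs3 was lower (-2.33 and -1.81), and the others did not meet the rule. Tomm6os, near them too, was higher against 2m (1.35 and 1.31) and not against P60 (-0.97 and 0.14). Frs3, Prickle4 and Tomm6os overlap, Tomm6 overlaps Frs3 and Tomm6os, and the end of Usp49 overlaps Tomm6. Strand was not stated, so reads in the shared stretches cannot be told apart, and these genes are not separate cases.

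Hopx, a small homeodomain protein that does not bind DNA, had 1 bound region inside the gene and averaged 237 and 147 CPM in 2m control cones and 23.6 and 21.8 CPM in the knockout. Rab11fip5, a partner of the vesicle protein Rab11, had log2 ratios of -2.51 and -3.17. Its means were low, 9.95 and 14.3 CPM in 2m control cones and 0.923 and 0.705 CPM in the knockout. With logs averaged over cells (mean ratio of both zones -1.09) and with a pseudocount of 10 (-1.03) it did not meet the rule. Rab11fip5 exceeded 1 CPM in 22 of 53 superior and 14 of 50 inferior 2m control cells. Thrb, with its 2 bound regions, had ratios of -2.28 and -2.29 against 2m and -3.02 and -2.47 against P60, and is itself the targeted gene.

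The 5 linked genes that were higher against both controls included 4 with a suppressed region within 50 kb. Nrxn3, a presynaptic adhesion protein, has 1 bound induced region (chr12:89094183-89094699, p = 0.00407) and 24 suppressed regions around it. It averaged 18.8 and 30.3 CPM in 2m control cones and 220 and 186 CPM in the knockout, with medians of 73.4 and 57.8 CPM against 0 and 0.0347. Fhod3, an actin-assembling formin, has 1 bound and 9 suppressed regions and ratios of 1.53 and 1.36. Gm10419, with the bound region inside Pde6b 47.2 kb away and 7 suppressed regions, averaged 81.6 and 62.6 CPM in the knockout and 0.0155 and 6.81 CPM in 2m control cones. Gse1 (ratios 1.14 and 1.13) and Gins2, a subunit of a replication complex (1.53 and 1.04), overlap at their ends and share a bound region, so they are not separate cases. With logs averaged over cells Gse1 (mean ratio of both zones 0.63), Gins2 (0.50) and Fhod3 (1.05) did not meet the rule against 2m, and with a pseudocount of 10 Gse1 (0.97) and Gins2 (1.04) did not. The median of Gse1 in superior cones was 1.60 CPM in the knockout and 4.60 CPM in 2m control. Of the 158 linked genes that also had a suppressed region within 50 kb, 9 (5.70%) were lower and 7 (4.43%) higher against 2m. Of the 1361 with none, 31 (2.28%) were lower and 10 (0.735%) higher. Among all genes the shares were 1.23% and 1.16%. The 158 genes were long, with a median of 127 kb against 24.3 kb for the 1361, and the part of length was not tested.

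**Figure D4:**
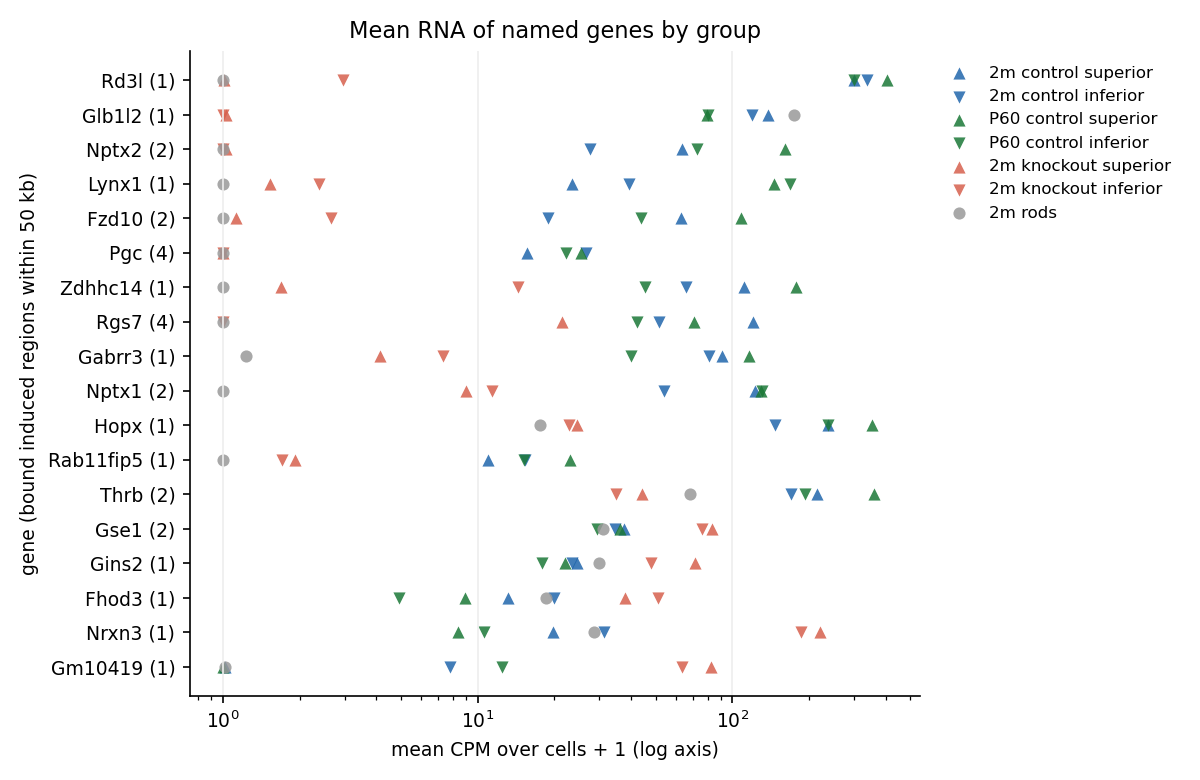
Mean CPM + 1 on a log axis of the named linked genes that met the size rule against both controls, and of Thrb, in 2m control (blue), P60 control (green) and 2m knockout (red) cones of the superior (up) and inferior (down) zone and in 2m rods (grey); the number of bound induced regions within 50 kb stands after each name. In the upper 13 genes every knockout mean lies below every adult control mean, and in the lower 5 above.

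Of the opsin genes, Opn1mw had 7 unbound induced regions within 50 kb and no bound one, the nearest being 16606 kb away. Its mean was 9599 CPM superior and 3414 CPM inferior in 2m control cones and 6.63 and 1.47 CPM in the knockout, with log2 ratios of -10.30 and -10.43. Opn1sw had 1 bound induced region 10.9 kb to its left (chr6:29365351-29365811, p = 1.38e-07) amid 10 suppressed regions. Its mean was 12658 CPM in 2m superior and 54032 CPM in 2m inferior control cones, and 71654 and 73742 CPM in the knockout, with log2 ratios of 2.50 and 0.45. The superior groups overlap (44.3 to 65875 CPM in control cells, 225 to 113656 CPM in knockout cells), with medians of 9991 and 70182 CPM.

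**Figure D5:**
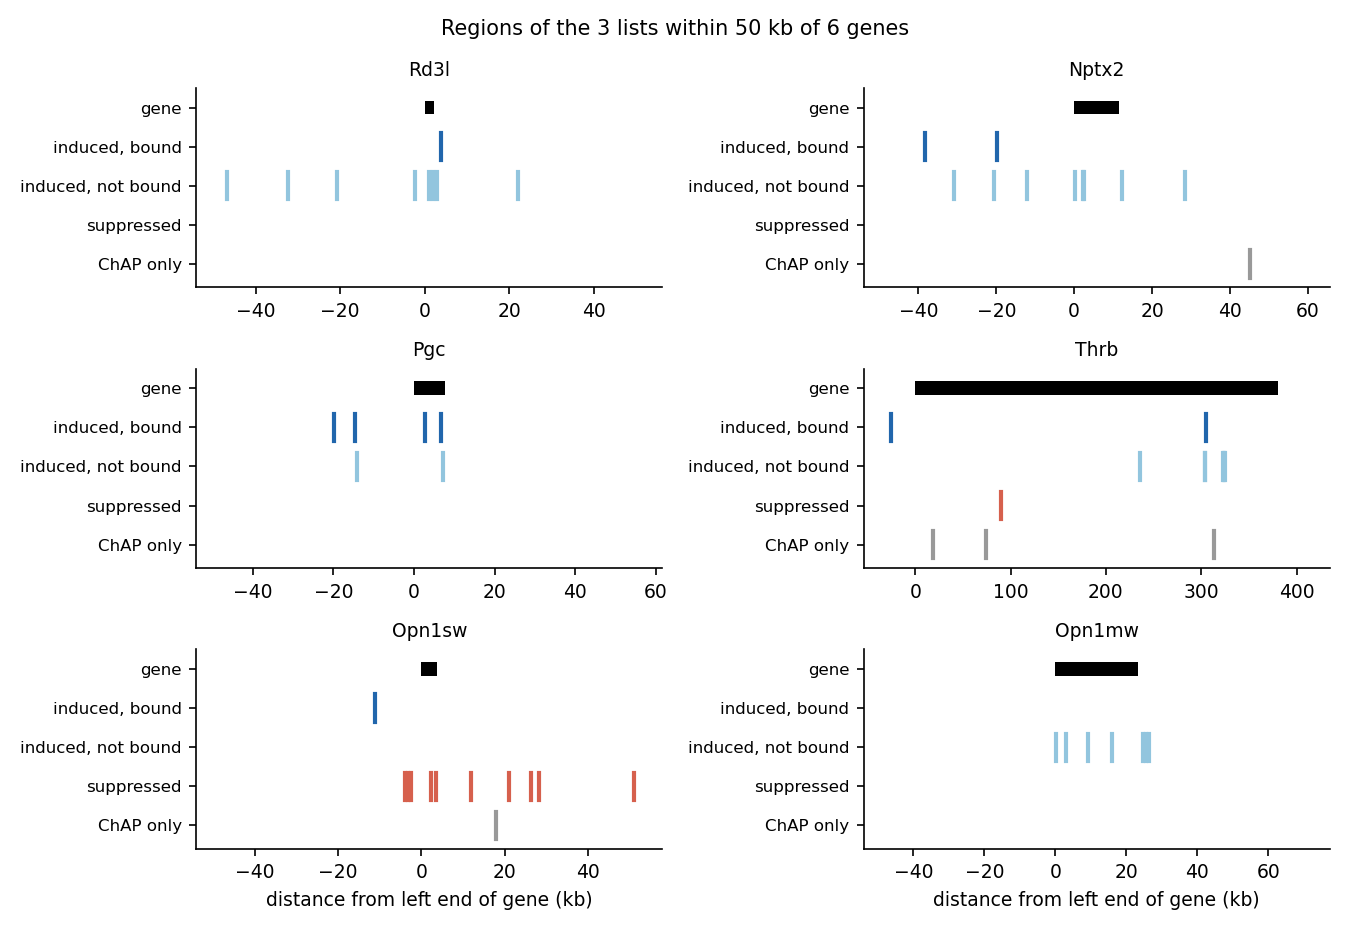
Regions of the 3 lists within 50 kb of 6 genes, each tick at a region's midpoint, by distance from the left end of the gene in kb (black bar, the gene). Bound induced regions number 1 at Rd3l, 2 at Nptx2, 4 at Pgc, 2 at Thrb, 1 at Opn1sw and 0 at Opn1mw, where 7 unbound induced regions stand.

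By function, the linked share of a list's measured genes ranged from 0% to 33.3%, beside 15% of all genes. Ratios and calls of the lists are against 2m control unless P60 is named. Of 21 measured genes of cone phototransduction, 5 were linked, among them Gnb3 and Guca1a, whose log2 ratios were 0.37 and 0.08, and 0.11 and -0.01. Of the 5, Rd3l was lower and Guca1b higher. Guca1b, an activator of guanylate cyclase, averaged 103 and 148 CPM in 2m control cones, 461 and 1326 CPM in the knockout and 5778 CPM in rods, but 205 and 712 CPM at P60, so it did not meet the rule against P60. Of 18 photoreceptor transcription factors 3 were linked, and Thrb was lower while Crx (-0.36 and 0.25) and Rorb (0.74 and 1.16) did not meet the rule. Of 14 genes of the thyroid hormone pathway 4 were linked, with Thra at -0.17 and -0.61 and Hr at -0.49 and 0.10. Of 24 synaptic terminal genes 7 were linked, 1 lower (Nptx2) and 1 higher (Nrxn3), and Stx3, Cplx3 and Slc17a7 did not meet the rule. Of 19 glycolysis genes 4 were lower and 1 higher against 2m, none of them among the 5 linked ones. Of these 5, Eno1, the glycolytic enzyme enolase, had ratios of -0.61 and -1.43 against 2m but was higher against P60 (1.82 and 1.25), and Slc16a1, named after its values were seen, was lower against P60. Of 17 ion channel and transporter genes 5 were linked with Gabrr3 lower. None of the 10 Muller glia or 5 dorsal and ventral patterning genes was linked. Of the markers of other retinal neurons, Cabp5 (bipolar cells, 3.51 and 0.71) and Slc6a9 (amacrine cells, 0.39 and 0.77) were linked and did not meet the rule.

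Rod genes were linked in 3 of 14 cases, and both that met the rule against 2m control failed it against P60. Pde6b averaged 41.8 and 158 CPM in 2m control cones, 3.56 and 43.5 CPM in the knockout and 8499 CPM in rods, with log2 ratios of -3.23 and -1.83 against 2m but 2.09 and -1.80 against P60. Its mean in P60 superior control cones was 0.0724 CPM, with 0 of 26 cells above 1 CPM. Gnat1, the rod transducin alpha subunit, had ratios of -1.26 and -2.76 against 2m and 0.07 and -4.58 against P60. The summed rod markers were 17090 and 21056 CPM in the knockout, 15912 and 21711 CPM in 2m control and 11598.5 and 19762 CPM in P60 control cones (superior and inferior), with no measured marker at 0 in the 2m groups and 1 at 0 in P60 superior cones. Their part in these ratios was not tested.

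Across zones, limma found no linked gene. Superior and inferior control cones were compared over the 5 collections, each zone of a collection giving 1 value, so its p-values measure only the spread between these collections. Of 1488 linked genes tested 0 passed an adjusted p of 0.05, as did 0% of all 10136 genes. At an unadjusted p under 0.05 there were 149 linked genes (10.01%), beside a background of 7%, of which 103 were higher in superior and 46 in inferior cones. The smallest adjusted p was 0.395, for Pja1, a ubiquitin ligase that was 0.91 higher in superior cones on the log2 scale (SE 0.15, higher in 5 of 5 collections). With logs averaged over cells in place of the log of the mean, limma called 9 linked genes (0.158% of all genes passed, 16 in number). Among these 9, Syndig1l, Opn1sw, Ccdc136 and Kcne2 were lower in superior cones in 5 of 5 collections, and Pja1, Ptp4a2, Stom, Desi1 and Tbc1d2 were higher in 5 of 5. Opn1sw then differed by -3.73 (SE 0.46, limma adjusted p = 0.000351), against -2.15 (SE 0.39, adjusted p = 0.476) on means. Stom was also lower in the knockout against both controls (-1.97 and -1.24 against 2m).

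Linked genes had shares near the background with age, and more of them were higher in cones than in rods. From P2 to 2m, 240 linked genes (15.8%) were lower, beside 14.5%, and 98 (6.45%) higher, beside 5.64%, with a median log2 ratio of -0.44 for linked and for all genes. Some of the genes lowest in the knockout had far lower means at P2 than at P8. Rd3l averaged 9.13 and 3.96 CPM at P2 and 423 and 216 CPM at P8, and Hopx 16.03 and 15.8 CPM at P2 and 102 and 78.2 CPM at P8 (superior and inferior). Lynx1 was at 0 in every P2 cell. Nptx1 (152 and 161 CPM) and Pgc were instead expressed at P2. In 2m control cones against rods, 330 linked genes (21.7%) were higher, beside 17.5%, and 26 (1.71%) lower, beside 2%.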

How the data were processed

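Members and gene lists were chosen with earlier results of these data known. RNA values were deposited by the authors in CPM, per cell, for 10390 genes. Per the submitters' processing notes, bcl2fastq 2, STAR 2.7.3a and MACS2 2.2.7.1 were used on GRCm38/mm10. Region positions, and for ChAP a p-value column, were deposited by the authors. The sources used here give neither the rule for induced and suppressed nor whether regions were called per sample or on pooled samples. Positions are printed from 1. Recovered from CPM, 100% of values above 0 were whole reads (tolerance 0.1). On these reads edgeR 4.0.16 (quasi-likelihood) called 0 genes between zones and DESeq2 1.42.0 called 237. P60 superior libraries 03 and 14 (Pearson r 0.996 on log2 values) were counted as 1 cell, which leaves 429 of 430.

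RefSeq intervals (GRCm38.p6) placed 10143 genes by gene ID. For 13 genes whose symbol had become a number, the ID gave the symbol. A group's value was its mean CPM, with a pseudocount of 1. The zone fit used limma 3.58.1 in R 4.3.3 (trend, collection as a block, mean of at least 5 CPM, Benjamini-Hochberg) on 10136 genes. Genes were named if they were Thrb or a cone opsin, met the size rule against both controls (up to 12 a direction), stood in a functional list and met the rule or had one of its 3 highest levels, or had the most bound regions. Stom and the zone genes were chosen after their values were seen, as were the classes by number of induced regions. Overlap counts, the size rule and the zone fit were tested on simulated data. Motif searches were not run.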

Additional observations from a re-analysis of the deposited data

Results flagged for a closer look

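For 48 named genes, the superior minus inferior difference (log2 of mean CPM + 1) was compared over the 5 control collections. In 5 genes 1 collection stood far from the other 4, where chance alone marks about 5% of such groups. Glb1l2 differed by 6.92 at P21 and by -0.01 to 0.60 elsewhere, and Nptx2 by -4.66 at P2 and 0.03 to 1.20 elsewhere. At P21, 7 of 24 superior and 0 of 24 inferior cells exceeded 1 CPM for Glb1l2. At P2, 0 of 26 superior and 4 of 30 inferior cells did so for Nptx2. Gnb1, a transducin beta subunit of rods, differed by -4.44 at P60 and by -1.10 to 0.12 elsewhere. Slc1a7 differed by 0.053 at 2m and by -0.28 to -0.19 elsewhere, and Guca1a by 0.13 at P2 and by -0.66 to -0.55 elsewhere.

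Knockout ratios against P60 control had opposite signs in the zones for a pair of rod genes near bound regions. Pde6b had 2.09 in superior and -1.80 in inferior cones, and Gnb1 had 1.27 and -2.46. In P60 superior control cones Pde6b averaged 0.0724 CPM with 0 of 26 cells above 1 CPM, against 4 of 50 superior knockout cells. Gnb1 exceeded 1 CPM in 2 of 26 superior and 4 of 21 inferior P60 cells, the highest inferior one at 3048 CPM. These differences between zones were not tested.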

How the results depend on the processing

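The number of bound induced regions was 1287 at an overlap of at least 100 bp and 1059 with the open region's midpoint in the ChAP region, but 720 at an overlap of 50% of the open region and 836 with a ChAP p of at most 0.001. Linked genes lower in the knockout (40 against 2m control) numbered 83 with P60 controls, 68 with logs averaged over cells, 120 with no filter on low values, 18 at 4-fold and 21 with a region inside the gene. Linked genes higher (17) numbered 10 within 10 kb, 10 with a pseudocount of 10, 61 with no filter, 4 at 4-fold, 7 with a region inside the gene and 10 without genes near a suppressed region. The last 2 choices were added after seeing the data. Of all 10143 genes, 118 were higher in the main setting, 63 with a pseudocount of 10, 463 with no filter and 17 at 4-fold. Among all genes with no suppressed region within 50 kb, 84 were higher. The share of linked genes lower exceeded that of all genes in every one of these settings (7.90% against 4.14% with no filter, 1.18% against 0.296% at 4-fold). With both near-identical P60 libraries kept, 87 linked genes were lower against P60, with no count taken over all genes.

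Of 92 values recomputed for 23 named genes, 78 met the rule in the same direction, 12 did not and 2 changed sign, both with P60 controls: Pde6b (0.14) and Tomm6os (-0.41). Between zones, the linked genes called were 0 without the collection block (no replicate block), 0 to 0 leaving out each collection, 0 by edgeR, 9 with averaged logs and 43 by DESeq2. Of all 10136 genes tested, of which 1488 were linked, 16 were called with averaged logs and 237 by DESeq2. The knockout comparison was not fitted with zone as a block. Searches for motifs, in all their window settings, were not run.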
